A study of Mus musculus with 3 samples.

Results

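The cells described are splenic B cells in which at least 1.5% of the unique molecular identifiers (UMIs, 1 per captured RNA molecule) came from *Gm42418* and *AY036118*, a pair of overlapping transcripts from a ribosomal DNA sequence. They were 1248 of 22736 kept cells. Mice received sheep red blood cells once, to induce germinal centers (GCs), and 10 days later splenic B cells went into droplet 3′ RNA sequencing, as 1 WT, 1 3′RR-*BCL2* and 1 Igκ-*BCL2* library. All mice were immunized and of a mixed B6/129 background. The 3′RR-*BCL2* mice carry a randomly integrated human *BCL2* cassette with the *BCL2* P1/P2 promoters, under the core enhancers of the IgH 3′ regulatory region, and in Igκ-*BCL2* mice the same cassette replaces the Jκ region of the Igκ locus, next to the Eκ enhancer. Age and the number of mice behind each library are not given in the sources used here. The paper describes its study mice of both models in general as hemizygous, but gives no zygosity for these libraries. By the labels only the WT library is of sorted B cells and both *BCL2* libraries are of whole tissue cells, while the methods describe magnetic sorting of B cells for all 3. *Xist*, a transcript of the inactive X chromosome, stood at 1702 UMIs per 1000000 (CPM) in the 3′RR-*BCL2* library outside the cells described. It stood at 0.163 in WT and 0.151 in Igκ-*BCL2*. Genotype and sex therefore cannot be told apart in comparisons with 3′RR-*BCL2*.

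Cells were kept with 800 to 4500 detected genes and no more than 20000 UMIs, if mitochondrial UMIs were no more than 8% and those of *Rpl* and *Rps* genes no less than 10%, with fewer than 2 UMIs over the *Cd3* and over the *C1q* genes. They are called high cells at or above 1.5% and other cells below it. The 3 libraries held 11269, 7579 and 7034 barcodes with 62777659, 45539172 and 37433924 UMIs, listed as throughout with WT first, 3′RR-*BCL2* second and Igκ-*BCL2* last, and 9, 14 and 13 kept barcodes occurred in more than 1 library of a pair, none of them high in both. The cells were chosen by their UMIs of *Gm42418* and *AY036118*, whose values are therefore given as a description. A single library per genotype allows no test, and every interval is exact, at 95%, and covers no more than counting error.

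Ribosomal RNA is made in the nucleolus as a long precursor, from which spacers are removed to leave the 18S, 5.8S and 28S RNAs. It is by far the most abundant RNA of a cell but carries no poly(A) tail, whereas 3′ libraries prime on runs of A, so that ribosomal RNA enters them only in small part. Nuclear RNAs such as *Malat1* and *Neat1* stay in the nucleus, mRNAs of housekeeping and ribosomal protein genes are mostly cytoplasmic, and mitochondrial mRNAs lie within the mitochondria.

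In the annotation of GRCm38, *Gm42418* (ENSMUSG00000098178) is a lincRNA of a single exon of 1831 bases at chr17:39846958-39848788 on the plus strand. *AY036118* (ENSMUSG00000105361), a lincRNA of 923 bases at chr17:39847113-39848035, lies wholly inside it on the minus strand, as the reverse complement of bases 156 to 1078 of *Gm42418*. The ribosomal RNA annotation CT010467.1, which was not counted, overlaps both, and its transcript matched bases 1 to 1244 of *Gm42418* at 100% identity on the opposite strand. *Gm26917* (ENSMUSG00000097971), a lincRNA of 3329 bases at chr17:39843013-39846341 on the plus strand, ends 11 bases before CT010467.1 begins and shared no stretch with *Gm42418* at an E value of up to 1e-05. None of the 9 transcripts of *Lars2*, on chromosome 9, matched any of the 3 lincRNAs. Ribosomal DNA occurs in many near-identical copies, and UMIs placed on these genes may come from any of them. Whether strand was used in counting is not given in the sources used here. *AY036118* has no stretch outside *Gm42418*, so without strand their UMIs could not be told apart. They were counted apart, as *AY036118* held 22020, 15589 and 18103 UMIs in the kept cells below the limit of 1.5%, with WT first and Igκ-*BCL2* last. The counts thus separate both genes by strand.

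Stretches of the 2 transcripts are shown to place them on the ribosomal RNA and to show their A runs. The first is chr17:39847137-39847201 read as *Gm42418*, with its longest A run in capitals, and the second is the same place read as *AY036118*, where the run is T. The third is chr17:39848163-39848231 of *Gm42418*, with the last 9 bases of 18S ribosomal RNA in capitals.
Gm42418, A run: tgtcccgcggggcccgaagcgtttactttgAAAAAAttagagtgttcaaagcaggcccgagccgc
AY036118, same place: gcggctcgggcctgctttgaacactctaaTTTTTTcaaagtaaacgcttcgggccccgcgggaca
Gm42418, end of 18S: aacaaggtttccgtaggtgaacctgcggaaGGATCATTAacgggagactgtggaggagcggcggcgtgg
The end of 18S fell at base 1244, where the match with CT010467.1 also ended, and 587 bases of spacer follow. *Gm42418* thus reads the sense strand of 18S and the spacer, and *AY036118* the antisense strand of 18S. *Gm42418* held 2 runs of at least 5 A, the longer of 6, while the longest run was 4 in *AY036118* and 4 in *Gm26917*.

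High cells were found in every library. They were 600 of 9932 kept cells in WT, or 6.04% (5.58 to 6.53), 290 of 6561 in 3′RR-*BCL2*, or 4.42% (3.94 to 4.95), and 358 of 6243 in Igκ-*BCL2* cells, or 5.73% (5.17 to 6.34). The share was lowest in 3′RR-*BCL2*, with an interval apart from those of the other libraries, which overlapped. The interval of 3′RR-*BCL2* overlapped that of WT with a limit of 1%, at 8.83 to 10.3 against 10.2 to 11.4, and with a looser cell filter, at 7.36 to 8.62 against 7.69 to 8.75, as it then also did that of Igκ-*BCL2*. High cells held 4.35%, 3.06% and 4.13% of the UMIs of kept cells but 23.5%, 15.7% and 20.4% of those of *Gm42418* and *AY036118*.

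**Figure D1:**
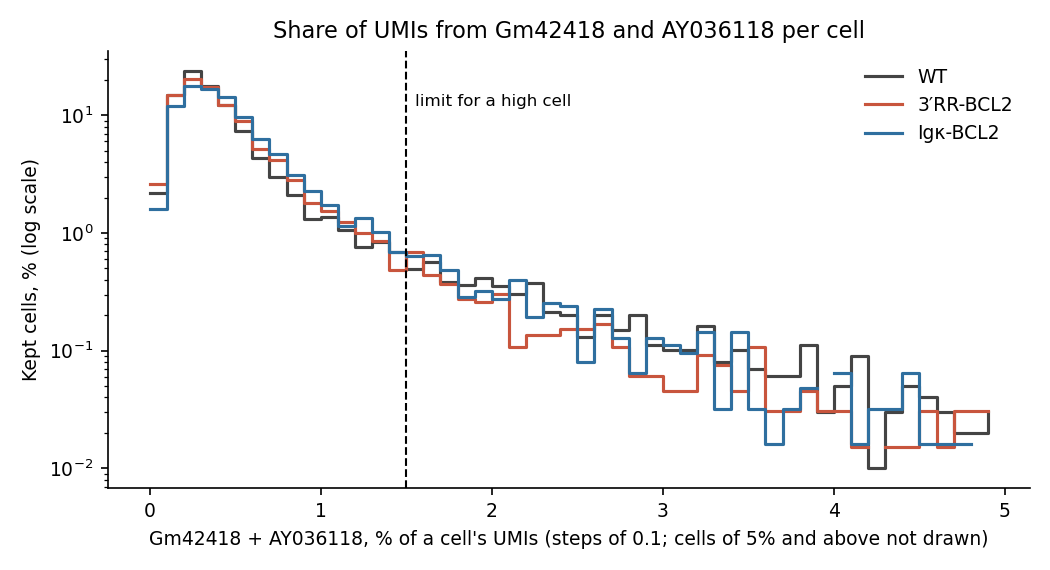
The x axis gives the share of a cell's UMIs from *Gm42418* and *AY036118* in steps of 0.1%, and the y axis the percent of kept cells on a log scale, with a line per library and the limit of 1.5% dashed. The 3 lines fall without a gap at the limit. Not drawn are 34, 18 and 26 cells at 5% and above.

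The high cells were the upper end of a distribution that had no gap at the limit. The median share over kept cells was 0.344% in WT, 0.366% in 3′RR-*BCL2* cells and 0.413% in Igκ-*BCL2*, and the highest cell stood at 10.6%, 12.05% and 14.2%. Between 1.4% and 1.5% there were 68, 32 and 43 cells, against 49, 45 and 40 between 1.5% and 1.6%. Their median mitochondrial share was 3.47% below and 3.70% above the limit in WT, 2.71% and 2.96% in 3′RR-*BCL2* cells, and 3.05% and 2.53% in Igκ-*BCL2*. Median UMIs were 3800 below and 3502 above in WT, 5406.5 and 4518 in 3′RR-*BCL2*, and 3850 and 3149 in Igκ-*BCL2*. The median share of *Rpl* and *Rps* genes was 22.5% and 22.3%, 21.6% and 19.8%, and 20.8% and 20.9%.

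By construction both genes were far higher in the high cells. *Gm42418* stood at 24120, 22630 and 24361 CPM in the high cells, in library order, against 3449, 3720 and 3914 in the other cells. *AY036118* stood at 1859, 1577 and 2260 against 399, 400 and 548. There were 13.0, 14.4 and 10.8 UMIs of *Gm42418* for each of *AY036118* in high cells against 8.64, 9.30 and 7.14 in the others, so the sense transcript, which makes up most of the share, was further apart between the cells than the antisense one in each library. Both genes had chosen the cells, and nothing is read from this beyond the values.

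High cells had fewer UMIs. Their median was 3599 in WT, 3158 in 3′RR-*BCL2* cells and 3258.5 in Igκ-*BCL2*, against 5116.5, 5353 and 4915 in the other cells, giving ratios of 0.703, 0.590 and 0.663. Detected genes were fewer as well, with medians of 1529, 1410 and 1408.5 against 1929, 1948 and 1847. The cells overlapped widely, as the upper quartile of the high cells, at 4843.5, 5534.75 and 4660.75 UMIs, lay above the lower quartile of the others, at 4032, 4115 and 3792. A share is more variable in a shallow cell, so the choice was repeated after thinning every cell to 1000 UMIs. It gave 662, 339 and 415 high cells, of which 546, 256 and 323 had been high at full depth, and ratios of full depth medians of 0.715, 0.669 and 0.699.

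**Figure D2:**
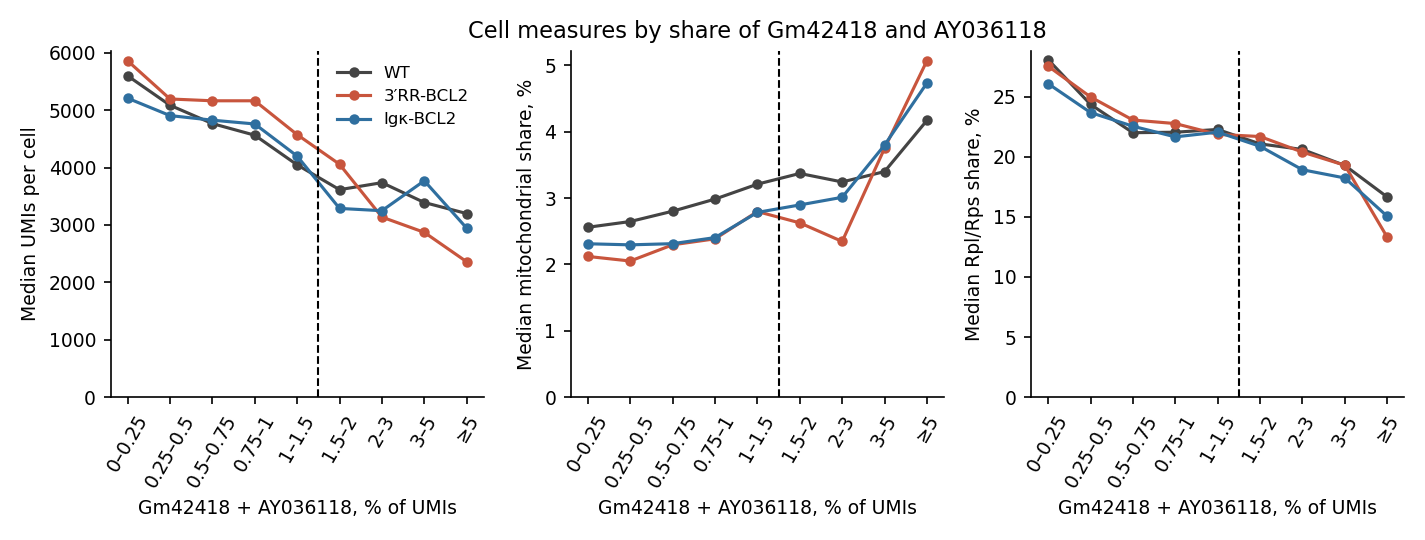
The x axis gives bins of the share of UMIs from *Gm42418* and *AY036118*, with the limit dashed, and the y axes the median UMIs per cell, the median mitochondrial share and the median share of *Rpl* and *Rps* genes, with a line per library. From the lowest to the highest bin, median UMIs went from 5600.5 to 3199.5 in WT, from 5862 to 2359 in 3′RR-*BCL2* cells and from 5210 to 2945 in Igκ-*BCL2* cells.

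The mitochondrial share was higher and the ribosomal protein share lower in the high cells of all 3 libraries. Of all UMIs of the high cells, 3.44%, 3.48% and 3.42% were mitochondrial, against 2.79%, 2.31% and 2.46% in the other cells. The 3 libraries thus differed more in their other cells than in their high cells. *Rpl* and *Rps* genes, of which 101 were counted, made up 21.5%, 21.2% and 20.3% of UMIs in the high cells against 26.1%, 26.2% and 24.9%. Both shares had limits in the choice of kept cells, which bound how far high and other cells could differ. With the other cells weighted to the UMI counts of the high cells, the mitochondrial difference was 0.673, 1.14 and 0.894 percentage points and the ribosomal one -3.23, -4.14 and -3.52.

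These shares differed between the ends of the range but did not move evenly, as the plot of cell measures by share shows. In cells under 0.25% the median ribosomal protein share was 28.1%, 27.5% and 26.1%, and in cells from 5% it was 16.7%, 13.3% and 15.1%. The median mitochondrial share stood at 2.56%, 2.12% and 2.31% in the lowest bin and at 4.17%, 5.07% and 4.73% in the highest. In 3′RR-*BCL2* the mitochondrial share stood at 2.35% in the 91 cells between 2% and 3%. In WT it was 3.37% between 1.5% and 2% and 3.24% in the next bin. In Igκ-*BCL2* it was flat in the 3 bins under 0.75%, at 2.31%, 2.29% and 2.31%. The WT ribosomal protein share was flat from 0.5% to 1.5%, at 22.01%, 22.05% and 22.28% in the 3 bins. The highest bin held only 34, 18 and 26 cells, and its 3′RR-*BCL2* value rests on fewer than 20.

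All 13 mitochondrial mRNAs were higher in the high cells of each library, with a median log2 ratio of 0.32 in WT, 0.62 in 3′RR-*BCL2* cells and 0.47 in Igκ-*BCL2*, where the median over all measured genes was 0.062, 0.075 and 0.050. Of all genes measured in the 3 libraries, 36.4% were higher in the high cells of each. *mt-Co3*, a subunit of cytochrome c oxidase, stood at 5943 against 4751 CPM in WT, 6039 against 3936 in 3′RR-*BCL2* cells and 6010 against 4209 in Igκ-*BCL2* cells. The largest ratio among them was that of *mt-Nd6*, a complex I subunit and the only mRNA encoded on the light strand, at 0.76, 0.84 and 0.84 on the log2 scale. *mt-Nd6* rests on 223, 82 and 140 UMIs in the high cells.

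Of ribosomal protein genes, 82 of 83 measured in every library were lower in the high cells of each, against 22.8% of all genes, and the median log2 ratio was -0.28 in WT, -0.33 in 3′RR-*BCL2* cells and -0.30 in Igκ-*BCL2*. *Rps2*, which encodes a protein of the small subunit, was the lowest by rank. It stood at 1443 against 2213 CPM in WT, 1435 against 2198 in 3′RR-*BCL2* cells and 1228 against 1903 in Igκ-*BCL2* cells. The exception was *Rpl36*, at -0.18, 0.012 and 0.0052.

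Other abundant cytoplasmic mRNAs were also lower. Of 18 housekeeping genes listed, 17 were lower in the high cells of each library, against 22.8% of all genes, with medians of -0.31, -0.38 and -0.36 on the log2 scale. *Gapdh*, a glycolytic enzyme, stood at 142 against 287 CPM in WT, 274 against 379 in 3′RR-*BCL2* cells and 200.4 against 322 in Igκ-*BCL2* cells, a log2 ratio of -1.01, -0.47 and -0.68. *Eef1a1*, a translation elongation factor, had ratios of -0.29, -0.36 and -0.42, and *Actb* of -0.16, -0.23 and -0.26. The exception, *Eef2*, had values of -0.088, 0.048 and -0.0064. Totals of the 18 genes were 38125 against 46418 CPM in WT, 37141 against 47368 in 3′RR-*BCL2* cells and 35704 against 44801 in Igκ-*BCL2* cells.

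The most abundant nuclear RNAs were higher. *Malat1*, which locates to nuclear speckles, stood at 40320 CPM in the high cells of WT against 32329 in the others, at 42426 against 33491 in 3′RR-*BCL2* cells and at 48943 against 38519 in Igκ-*BCL2* cells, log2 ratios of 0.32, 0.34 and 0.35. *Neat1*, the scaffold of paraspeckles, had ratios of 0.65, 0.40 and 0.47. *Kcnq1ot1*, an imprinted transcript that acts in the nucleus, had 0.082 in WT, with an interval from -0.031 to 0.19, against 0.64 and 0.47 in the *BCL2* libraries. These 3 were the members higher in all libraries among the 5 of 14 listed nuclear RNAs that were measured in each, where 36.4% of all genes were. The others had mixed signs and intervals across 0 in every library, *Ftx* with -0.11, 0.24 and -0.15 and *Mir142hg* with 0.23, -0.11 and 0.20. *Pvt1* and *Jpx*, measured in WT alone, had -0.54 and 0.14 there, also with intervals across 0. *Xist*, which only 3′RR-*BCL2* cells held in number, stood there at 2255 CPM in the high cells against 1702, a ratio of 0.41 (0.35 to 0.46). The median of the list was 0.14, 0.34 and 0.35.

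Messages for splicing factors and speckle proteins, many of which keep introns that hold them in the nucleus, moved the same way. Of 20 listed, 17 were higher in the high cells of each library, against 36.4% of all genes, with medians of 0.22, 0.28 and 0.24. *Srrm2*, a speckle scaffold, stood at 1052 against 861 CPM in WT, 1089 against 853 in 3′RR-*BCL2* cells and 1019 against 835 in Igκ-*BCL2* cells. *Son*, the other speckle scaffold, had log2 ratios of 0.26, 0.37 and 0.25. *Srsf7* and *Ddx5* were lower in each library, with -0.18, -0.21 and -0.27 for *Srsf7*.

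The span of a gene, exons and introns together, went with its ratio. When 6105 protein-coding genes measured in every library were divided by genomic span into 5 groups of 1221, the median log2 ratio went from -0.14 in the shortest, of up to 8589 bases, to 0.20 in the longest, from 65432 bases, in WT. It went from -0.16 to 0.28 in 3′RR-*BCL2* cells and from -0.15 to 0.23 in Igκ-*BCL2*, and the groups between followed in order in each library. Intronic reads may be among those counted, which was not tested, as the counts do not separate them.

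**Figure D3:**
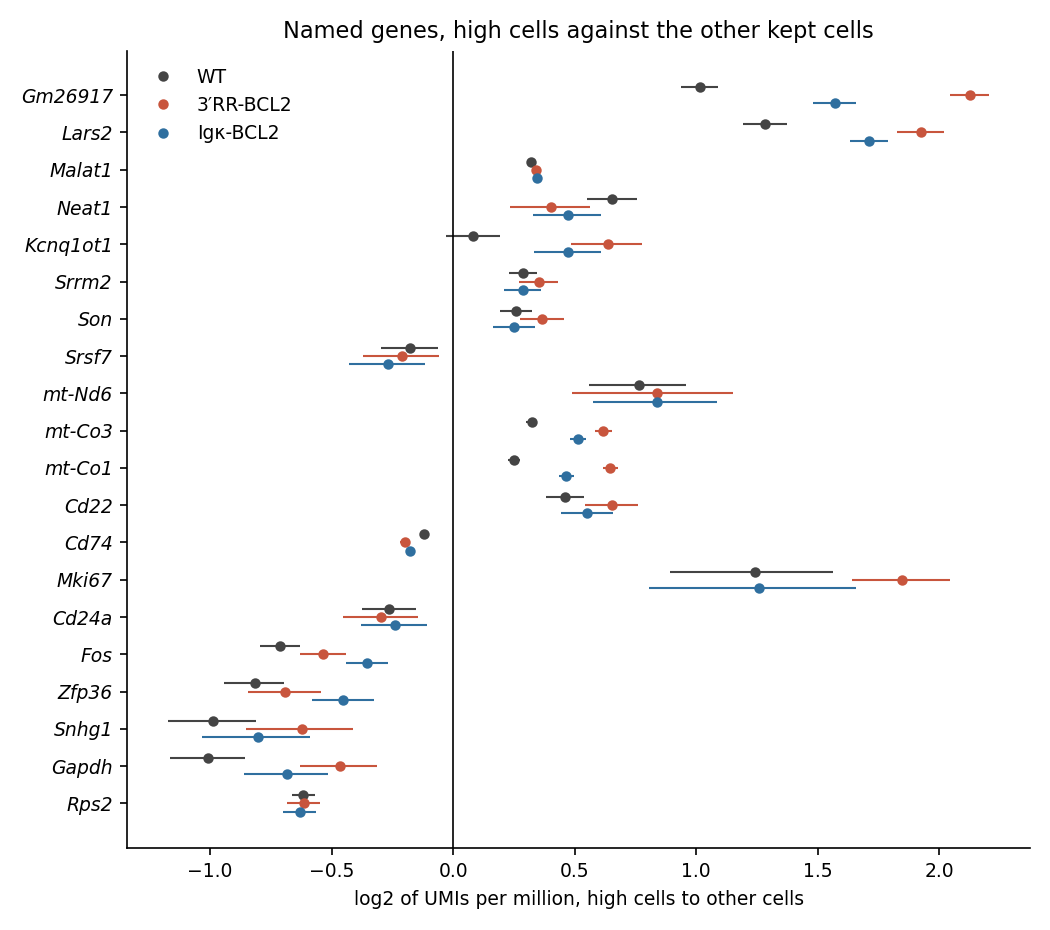
The x axis gives the log2 ratio of CPM in the high cells to the other cells, with a point per library and its exact 95% counting interval as a bar, for 20 named genes. *Gm26917*, *Lars2*, *Mki67* and the mitochondrial and nuclear RNAs lie to the right of 0 and *Gapdh*, *Snhg1*, *Rps2* and *Zfp36* to the left in all 3 libraries.

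Beside the genes of the rule, *Lars2* and *Gm26917* stood out. *Lars2*, which encodes the mitochondrial leucyl-tRNA synthetase, led the ranking by the smallest of the 3 log2 ratios. It stood at 445 CPM in the high cells of WT (420 to 472) against 183 in the others, at 782 (734 to 833) against 206 in 3′RR-*BCL2* cells and at 1055 (1003 to 1110) against 322 in Igκ-*BCL2* cells, log2 ratios of 1.28, 1.92 and 1.71. *Lars2* was thus highest in Igκ-*BCL2* cells in both kinds of cells. *Gm26917*, which lies upstream of 18S, stood at 611, 1190 and 824 CPM against 302, 273 and 278, log2 ratios of 1.02, 2.12 and 1.57. Among the other cells the 3 libraries were close for *Gm26917*, and among the high cells they were not.

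Below the limit and at equal depth, both genes were also higher in bins of a higher share, with 1 exception. After thinning to 1000 UMIs, *Lars2* had a mean of 0.0955, 0.103 and 0.162 UMIs per cell in cells under 0.25%, in library order, and of 0.374, 0.528 and 0.751 in those between 1% and 1.5%, with no step down between. Above the limit it was flat in WT, at 0.450, 0.401 and 0.435 in the 3 bins up to 5%, until 1.24 in the 34 cells beyond, while in 3′RR-*BCL2* it went from 0.602 to 1.04 over these bins and in Igκ-*BCL2* from 1.07 to 1.20. *Gm26917* went from 0.205, 0.190 and 0.176 under 0.25% to 0.389, 0.752 and 0.585 between 1% and 1.5%, and the exception was WT, where the bin before stood at 0.452. Above the limit *Gm26917* was uneven, with 0.782, 0.491, 0.839 and 0.941 in WT, 1.43, 2.45, 1.94 and 2.67 in 3′RR-*BCL2*, and 0.846, 0.968, 1.90 and 1.12 in Igκ-*BCL2*. It was uneven among cells too, as 50% (26.0 to 74.0) of the 18 3′RR-*BCL2* cells from 5% held a UMI of it. *Malat1*, at means of 27.8, 28.99 and 34.6 in the lowest bin, stood at 48.7, 49.2 and 51 in the highest.

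**Figure D4:**
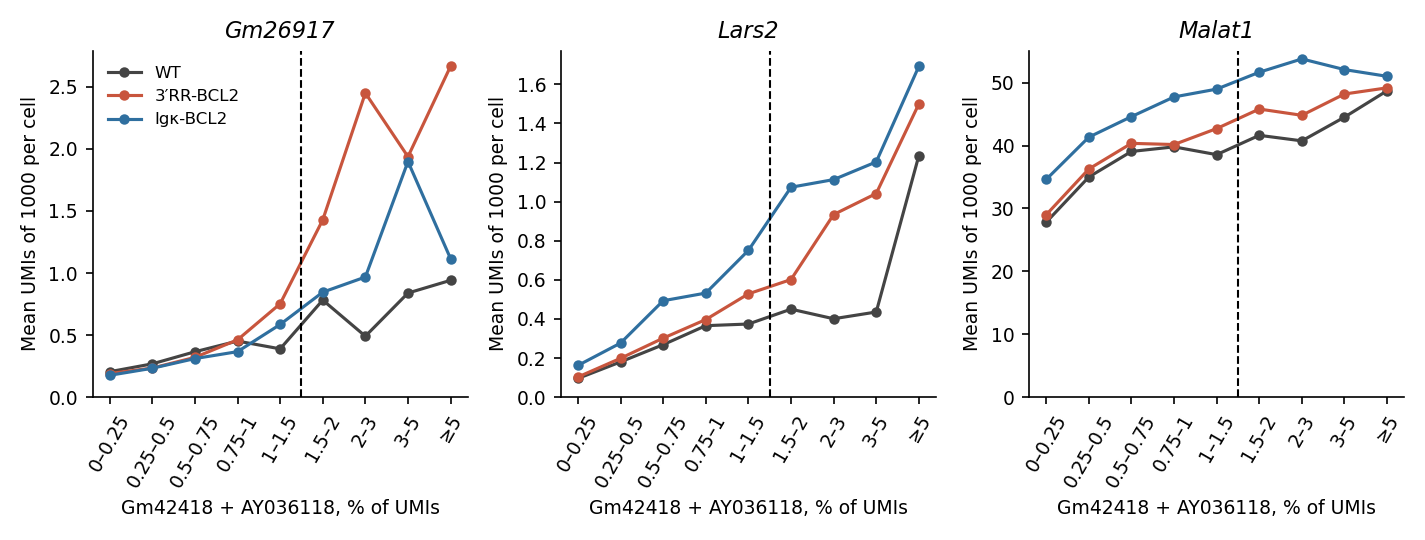
The x axis gives bins of the share of UMIs from *Gm42418* and *AY036118*, with the limit dashed, and the y axes the mean UMIs of *Gm26917*, *Lars2* and *Malat1* per cell after thinning to 1000 UMIs, with a line per library. *Lars2* stands between 0.0955 and 0.162 in the lowest bin and between 1.24 and 1.69 in the highest.

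Of 6237 genes measured in all 3 libraries, 21 were at least 1.5-fold higher in the high cells of each, or 0.337%, and 11 were at least 1.5-fold lower, or 0.176%. In single libraries 2.3% of genes in WT, 6.68% in 3′RR-*BCL2* cells and 4.1% in Igκ-*BCL2* were higher by this fold, and 2.96%, 3.4% and 3.07% lower. After *Lars2*, the ranking held *Mki67*, *Gm26917*, *Syne1*, *Zfp407*, *Golgb1*, *Utrn*, *Pdzd2*, *mt-Nd6* and *Ints6l*. *Syne1* encodes a giant spectrin-repeat protein of the nuclear envelope and had log2 ratios of 0.89 in WT, 2.01 in 3′RR-*BCL2* cells and 1.61 in Igκ-*BCL2*. *Golgb1*, the Golgi protein giantin, had 0.83, 1.13 and 1.10, *Utrn*, the dystrophin relative utrophin, had 0.77, 0.91 and 0.95, and *Zfp407*, a zinc finger protein, had 0.83, 1.12 and 0.84. *Pdzd2* stood at 0.76, 1.82 and 1.6 and *Ints6l*, of the Integrator family, at 0.75, 0.79 and 0.82.

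At the other end of the ranking stood *Ciao2a*, *S100a6*, *Ttc32*, *Hmgn2*, *Cox6a1*, *Tmem258*, *Snhg1*, *Immp1l*, *2300009A05Rik* and *Rps2*. *Ciao2a*, of cytosolic iron-sulfur assembly, stood at 23.5 CPM in the high cells of WT against 63.1, at 26.0 against 59.4 in 3′RR-*BCL2* cells and at 26.0 against 55.0 in Igκ-*BCL2*. *Hmgn2*, a nucleosome-binding protein, had log2 ratios of -1.19, -0.72 and -0.94, *Cox6a1*, a nuclear-encoded subunit of cytochrome c oxidase, had -1.13, -0.84 and -0.72, and *Tmem258* had -1.51, -0.62 and -0.96. *Cox6a1* was thus lower where the mitochondrially encoded *mt-Co1*, at 0.25, 0.65 and 0.47, was higher. *Ttc32* and *S100a6* rest on 8 to 29 UMIs in the high cells of a library.

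*Snhg1*, whose spliced RNA is exported and decayed after its introns have given small nucleolar RNAs, stood at 105 CPM in the high cells of WT against 208, at 142 against 219 in 3′RR-*BCL2* cells and at 121 against 211 in Igκ-*BCL2* cells. Of 10 such host genes 6 were lower in each library, against 22.8% of all genes, and none higher in each, with medians of -0.32, -0.19 and -0.12.

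Immediate early genes, which respond within minutes to stimulation and to handling, were lower in the high cells. Of 18 measured in every library, 16 were lower in each, against 22.8% of all genes, with medians over the list of -0.24, -0.34 and -0.28. *Fos* stood at 491 against 804 CPM in WT, 746 against 1081 in 3′RR-*BCL2* cells and 789 against 1009 in Igκ-*BCL2* cells. *Zfp36*, which encodes an mRNA decay factor, was the lowest by rank with ratios of -0.82, -0.69 and -0.45. *Fosb* was the only member higher in each, by 0.0086, 0.023 and 0.13, with intervals across 0 in WT and 3′RR-*BCL2*, and *Egr3* had mixed signs.

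The high cells carried B cell genes. *Cd79a*, *Cd79b*, *Ms4a1*, *Cd22*, *Pax5*, *Ebf1* and *Cd74* were present in the high cells of each library. *Cd79a*, a signaling chain of the B cell receptor, stood at 3183.5, 2429 and 2800 CPM against 3270, 2976 and 3125 in the other cells. *Cd22*, an inhibitory coreceptor, was higher with ratios of 0.46, 0.65 and 0.55, and *Cd74*, the invariant chain, lower with -0.12, -0.20 and -0.18. Of 8 T cell genes, 4, 5 and 5 were at 0, *Cd3e* and *Cd8a* among them in each library, and the list summed to 37, 39 and 25 UMIs, where fewer than 2 *Cd3* UMIs per cell were allowed. The 8 myeloid genes gave 11, 2 and 3 UMIs, with *Lyz2*, *Csf1r* and the *C1q* genes at 0. Their sums stood at 4.39, 1.62 and 2.11 CPM against 46.9, 11.0 and 2.73 in the other cells, so the levels were close in Igκ-*BCL2*. The 5 NK cell genes gave 21, 0 and 0 UMIs, in WT 8.37 CPM against 1.36 in the other cells, with *Gzma* at 7 UMIs against 0. Their part in the WT values was not tested. There were 18, 48 and 6 UMIs of the 6 erythroid and platelet genes, at 39.0 CPM in 3′RR-*BCL2* against 18.4 in its other cells.

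Cells with UMIs of several GC genes were more frequent among the high cells of both *BCL2* libraries. After thinning to 1000 UMIs, 43 of 290 high cells of 3′RR-*BCL2*, or 14.8% (10.9 to 19.4), held 2 or more of 8 GC genes, against 5.66% (5.10 to 6.26) of the other cells. In Igκ-*BCL2* these were 26 of 358 high cells, or 7.26% (4.80 to 10.5), against 2.45% (2.07 to 2.87). In WT, where such cells were rare, 5 of 600 high cells, or 0.833% (0.271 to 1.93), stood against 0.493% (0.361 to 0.657), a difference not detectable at this depth. As a background, cells with UMIs of at least 2 transitional B cell genes, which should lack the GC program, had 2 GC genes in 0.909% in WT, 5.67% in 3′RR-*BCL2* cells and 2.57% in Igκ-*BCL2*, with median depths of 4998, 5201.5 and 4870 UMIs. Cells with 2 marginal zone genes, which should lack it too, had 2 GC genes in 0.345% (0.0712 to 1.004), 2.48% (1.19 to 4.505) and 0.535% (0.0135 to 2.94), with median depths of 5876, 6387 and 5954 UMIs. The shares of the high cells in both *BCL2* libraries lay above both backgrounds. Those of the other cells lay at the first, and in 3′RR-*BCL2* above the second. Whether the cells of the first background included GC cells was not tested, so nothing is read from the other cells lying at it.

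Counted the other way, 10.8% (7.93 to 14.3) of the 398 cells with 2 GC genes were high cells in 3′RR-*BCL2* and 15.3% (10.2 to 21.6) of 170 in Igκ-*BCL2*, against 3.97% (3.42 to 4.58) and 5.49% (4.85 to 6.19) of the cells with 2 genes of none of the 6 stage lists. Thinned to 2000 UMIs, which leaves out shallower cells, 6.03% (4.34 to 8.13) of 663 such cells were high in 3′RR-*BCL2* and 10.8% (7.69 to 14.7) of 333 in Igκ-*BCL2*. No value for the cells without stage genes is given at this depth. At it 17.7% (13.0 to 23.3) of high cells against 10.1% (9.36 to 10.9) of the others had 2 GC genes in 3′RR-*BCL2*. In Igκ-*BCL2* these were 11.4% (8.11 to 15.4) against 5.13% (4.57 to 5.73). The 398 and 170 cells with GC genes were deeper than those with none of the lists, at median UMIs of 6624.5 and 7343.5, against 5187 and 4764.5. The median share of *Gm42418* and *AY036118* was 0.431% and 0.464% in the cells with GC genes, against 0.369% and 0.416%. The difference between the libraries has no replicate and was not tested.

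Single GC genes moved unequally. *Nuggc*, a nuclear GTPase of GC cells, had a log2 ratio of 1.34 (1.02 to 1.64) in 3′RR-*BCL2* cells and 1.16 (0.72 to 1.55) in Igκ-*BCL2*, *Mef2b*, a transcription factor, had 1.15 and 1.15, and *Mybl1*, of the Myb family, had 1.12 and 1.22. *Bcl6*, the repressor that directs the GC program, had 0.23 (-0.10 to 0.52) and 0.54 (0.25 to 0.80). *Rgs13*, a regulator of G protein signaling, had -0.89 (-1.57 to -0.34) and -0.09 (-0.68 to 0.40). The medians of the list were 0.50 and 0.85, and in WT only *Basp1* and *Bcl6* were measured at 20 expected UMIs, with intervals across 0.

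**Figure D5:**
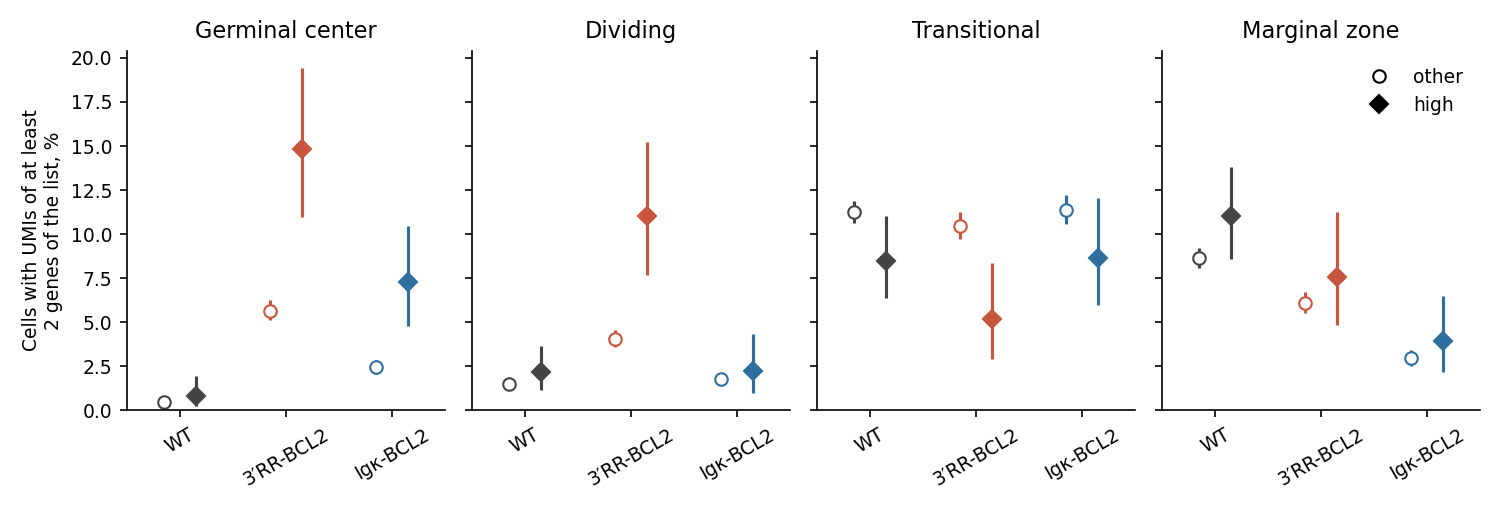
The y axis gives the percent of cells with UMIs of at least 2 genes of a list of 8 after thinning to 1000 UMIs, for the other cells (open circles) and the high cells (diamonds) of each library on the x axis, with exact 95% counting intervals as bars. For GC genes the bars of high and other cells are apart in 3′RR-*BCL2* cells and Igκ-*BCL2* and overlap in WT.

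Cell division genes were more frequent among the high cells of 3′RR-*BCL2*. Of these cells 11.0% (7.67 to 15.2) had UMIs of at least 2 of 8 division genes, against 4.07% (3.59 to 4.58) of the others, while the intervals overlapped in WT, at 2.17% against 1.51%, and in Igκ-*BCL2* cells, at 2.23% against 1.77%. Thinned to 2000 UMIs the intervals were also apart in Igκ-*BCL2*, at 8.23% (5.45 to 11.8) against 4.49% (3.97 to 5.05). *Mki67*, which coats mitotic chromosomes, was higher in each library, at 33.5 against 14.2 CPM in WT, 188 against 52.2 in 3′RR-*BCL2* cells and 36.6 against 15.4 in Igκ-*BCL2*. *Top2a*, topoisomerase IIα, had ratios of 0.36, 0.89 and 0.19, with intervals across 0 in WT and Igκ-*BCL2*. *Stmn1*, a tubulin-binding protein, had -0.34 (-0.85 to 0.10), 0.62 (0.29 to 0.92) and -0.35 (-1.08 to 0.24). *Pclaf* had -1.14 (-2.11 to -0.41) in WT and 0.39 (-0.046 to 0.78) in 3′RR-*BCL2*. In WT, 2 of the 5 measured members of the list were higher and 3 lower, with a median of -0.060.

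Genes of transitional B cells, the recent arrivals from bone marrow, were found in fewer of the high cells of 3′RR-*BCL2*. In 3′RR-*BCL2*, 5.17% (2.92 to 8.39) of high cells had 2 of 8 transitional genes, against 10.4% (9.70 to 11.2) of the others. The shares were 8.50% (6.39 to 11.0) against 11.2% (10.6 to 11.9) in WT and 8.66% (5.96 to 12.1) against 11.4% (10.6 to 12.2) in Igκ-*BCL2*, where the intervals overlapped. Thinned to 2000 UMIs those of Igκ-*BCL2* were narrowly apart, at 23.4% (18.9 to 28.48) against 29.7% (28.52 to 30.9). *Cd24a*, a surface glycoprotein high on immature B cells, was lower in each library, with log2 ratios of -0.26, -0.30 and -0.24, as were *Vpreb3* and *Spib*, with intervals across 0 for both in Igκ-*BCL2* cells.

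Marginal zone genes differed among themselves in the unweighted ratios. *Cr2*, complement receptor 2, had ratios of 0.17, 0.49 and 0.22, and *Cd1d1*, which presents lipids, had 0.46 in WT, with 0.21 and 0.16 and intervals across 0 in the *BCL2* libraries. *Fcrl5*, an Fc receptor-like protein, had -0.53 (-1.10 to -0.055) in WT, and the median of the list was 0.0094, 0.27 and 0.15. With the other cells weighted to the depth of the high cells, *Fcrl5* had -0.014 in WT. The list medians were then 0.31, 0.37 and 0.22, against 0.030, 0.047 and 0.026 over all measured genes. The share of cells with 2 of 8 marginal zone genes was 11.0% against 8.62% in WT, 7.59% against 6.09% in 3′RR-*BCL2* cells and 3.91% against 2.94% in Igκ-*BCL2*, with overlapping intervals in each. Of 8 genes of activated B cells 6 were lower in each library, against 22.8% of all genes, led by *Nme1*, a nucleoside diphosphate kinase, at -0.75, -0.45 and -0.86. *Ncl*, the nucleolar protein nucleolin, had -0.16 (-0.23 to -0.087), 0.58 (0.50 to 0.66) and 0.17 (0.079 to 0.25), and *Myc* had 0.076 in 3′RR-*BCL2* with an interval across 0. The list summed to 1915, 2468 and 1718 CPM against 2487, 2378 and 2084, so that in 3′RR-*BCL2* its total was higher in the high cells.

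*Jchain*, the joining chain of secreted IgM and IgA, was the lowest of the plasma cell genes by the ratio nearest 0 of the 3 libraries. It stood at 7.18 against 40.2 CPM in WT and 74.5 against 301 in Igκ-*BCL2* cells, ratios of -2.45 and -2.01, but at 128 against 152 in 3′RR-*BCL2*, a ratio of -0.24 (-0.48 to -0.01). The WT value rests on 18 UMIs. *Mzb1*, a chaperone of antibody secretion, had ratios of -0.17, -0.25 and -0.32, in 3′RR-*BCL2* below that of *Jchain*. The list did not move as a whole. Of its 4 genes measured in every library, 2 were lower in each, against 22.8% of all genes. Another 1 was higher in each, against 36.4% of all genes. The medians of the list were -0.070, -0.23 and -0.22. Cells with 2 of 8 plasma cell genes made up 5.17% of high cells against 5.77% of the others in WT, 5.52% against 9.47% in 3′RR-*BCL2* cells and 10.3% against 10.1% in Igκ-*BCL2*, so the share and *Jchain* did not follow each other and no order is read from it. Thinned to 2000 UMIs the shares were 16.3% against 17.1% in WT, 24.3% against 24.5% in 3′RR-*BCL2* and 20.6% against 26.5% in Igκ-*BCL2*.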

How the data were processed

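Single-cell RNA was measured in 3 libraries of splenic B cells. The deposited values are whole UMI counts for each gene and barcode, which the authors made with Cell Ranger 6.1.1 on mm10, and no test was made with 1 library per genotype. The filters on genes, UMIs, mitochondrial and ribosomal RNA follow the paper, whose limit for *Cd3* and *C1q* UMIs is not given in the sources used here. Doublets were not removed. The limit of 1.5% and the gene lists were chosen with earlier results of these data known.

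UMIs were summed over high and over other cells, with 0.5 added for log2 ratios. Genes needed 20 UMIs expected in the high cells at equal levels. Shares have Clopper-Pearson, levels Poisson and ratios exact conditional intervals. Named genes were drawn from the locus genes, the nuclear RNAs and the ends of each list, not all of which are named. The 10 highest and 10 lowest by the value nearest 0 of the 3 libraries were also named, without immunoglobulin and sex-linked genes. Other genes named were chosen after their values were seen. Some list members are not reported here. Of 32285 gene identifiers 32235 were in GENCODE M21 (GRCm38), which gave coordinates and transcripts, compared with blastn 2.17.0. Alternatives were other limits, thinning, weighting over 10 UMI bins, totals without the rule genes, a looser filter (at least 500 genes, up to 15% mitochondrial) and other minimums. Python 3.11.15, numpy 2.4.6, scipy 1.17.1 and pandas 2.3.3 were used, and intervals were tested on simulated data.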

Additional observations from a re-analysis of the deposited data

Results flagged for a closer look

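Barcodes over 8% mitochondrial or under 800 genes reached the limit of 1.5% far more often than kept cells. Of the barcodes over 8% mitochondrial, 62.6% (59.3 to 65.7) of 916 in WT, 66.4% (62.3 to 70.3) of 553 barcodes in 3′RR-*BCL2* and 63.2% (58.6 to 67.7) of 454 barcodes in Igκ-*BCL2* had at least 1.5% of UMIs from *Gm42418* and *AY036118*, against 6.04%, 4.42% and 5.73% of the kept cells. Their median depth was 985, 1388 and 1001 UMIs. Of the barcodes under 800 genes, 62.9%, 65.6% and 63.9% were above the limit. Of those over 4500 genes or 20000 UMIs, 0 of 109 in WT, which allows up to 2.75% if the limit is set at 3 counts, 2 of 133 for 3′RR-*BCL2* and 0 of 57 in Igκ-*BCL2*, which allows up to 5.26%, were above it. The parts of depth and cell quality in these shares were not tested.

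The median log2 ratio of the 9 genes of resting follicular B cells was 0.14 in WT and -0.14 in 3′RR-*BCL2* cells, against 0.031 for Igκ-*BCL2*, with opposite signs in WT and 3′RR-*BCL2*. The medians carry no interval, the members went both ways in each library, and the difference was not tested. With the other cells weighted to the depth of the high cells the medians were -0.068, -0.16 and -0.0044.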

How the results depend on the processing

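With 1 library per genotype, nothing here measures variation between mice, and neither the origin of the ribosomal RNA nor the part of library preparation was tested. No paired analysis was possible because each genotype has a single library. Values are given in the order WT, 3′RR-*BCL2* and Igκ-*BCL2*. Of 105 alternative values, 4 had another sign than the value reported, all of them medians of stage lists at equal UMIs.

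The share of high cells depends on the limit, with 10.8%, 9.53% and 11.6% at 1% and 3.83%, 2.39% and 3.35% at 2%, and was 8.21%, 7.97% and 8.82% with the looser filter and 6.67%, 5.17% and 6.65% when chosen after thinning. The ratio of median UMIs was 0.727 and 0.755 in the *BCL2* libraries at 1%, and 0.575, 0.388 and 0.508 with the looser filter. The mitochondrial difference was 0.733, 1.25 and 1.04 percentage points with totals without the 2 genes, 1.46, 2.67 and 2.01 with the looser filter, and 0.894 in Igκ-*BCL2* at equal UMIs. The ribosomal difference was -3.23, -4.14 and -3.52 at equal UMIs, -4.08, -4.55 and -4.16 with totals without the 2 genes, and -5.76, -7.08 and -6.53 with the looser filter. In an alternative chosen after seeing the data, without cells with 2 GC or dividing genes, the share in 3′RR-*BCL2* was 3.79%, the ribosomal difference -4.62 there and -4.49 in Igκ-*BCL2*, and the mitochondrial one 0.925 in Igκ-*BCL2*.

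At equal UMIs the WT median of the resting follicular list turned from 0.14 to -0.068 and the Igκ-*BCL2* one from 0.031 to -0.0044, and in WT that of the dividing list turned from -0.060 to 0.035 and that of the GC list, over 2 genes, from -0.0028 to 0.15. In WT that of the marginal zone list went from 0.0094 to 0.31 and that of the activated list from -0.47 to -0.28. Thinned to 2000 UMIs, 11.4% of high cells in Igκ-*BCL2* and 0.923%, 10.1% and 5.13% of the other cells had 2 GC genes. Genes at least 1.5-fold higher were 187, 420 and 281, then 63, 148 and 87 with a minimum of 50 UMIs, and 124, 293 and 224 at equal UMIs. Genes lower by this fold were 241, 214 and 210, and 109, 77 and 73 with that minimum. The higher minimum tests fewer genes. The causes of the other changes were not tested.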

Other observations

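Of 13 RNA polymerase I and ribosome assembly genes measured in every library, 5 were higher in the high cells of each, against 36.4% of all genes, and 1 was lower, against 22.8%. In 3′RR-*BCL2* alone 12 of 13 were higher, but no share of all genes higher in that library alone is given, so nothing is read from this count. The medians of the list were 0.058, 0.30 and 0.11, against 0.062, 0.075 and 0.050 over all measured genes. *Ubtf*, the upstream binding factor of ribosomal DNA, stood at 130 against 112 CPM in WT, 133 against 109 in 3′RR-*BCL2* and 141 against 102 in Igκ-*BCL2*. *Npm1*, the nucleolar protein nucleophosmin, was lower with log2 ratios of -0.43, -0.25 and -0.60.

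Of 9 heat shock genes measured in each library, 2 were higher and 5 lower in all 3, where 36.4% of all genes were higher and 22.8% lower, shares that stand beside the next counts as well. *Hsph1*, a co-chaperone, had ratios of 0.49, 0.76 and 0.50, and *Hspe1*, the mitochondrial co-chaperonin, of -0.31, -0.31 and -0.37. Of 6 p53 target genes, 3 were higher in each library, *Trp53inp1* with 0.32, 0.32 and 0.20, and 1, *Bax*, lower with -0.19, -0.26 and -0.02. Of 8 MHC class II genes 3 were higher in each, with *Ciita*, the transactivator of the class, at 0.32, 0.25 and 0.28, and 2 lower. None of the satellite-like RNAs listed was measured in all libraries, and 2 interferon genes were, with mixed signs.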
